A study of Mus musculus with 8 samples.

Results

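The genes described here are the carriers that move amino acids and related small molecules across cell and lysosome membranes in mouse liver, from the solute carrier families SLC1, SLC3, SLC6, SLC7, SLC36, SLC38 and SLC43. They were chosen by symbol alone, as genes of the table named Slc1a, Slc3a, Slc6a, Slc7a, Slc36a, Slc38a or Slc43a followed by a number. The rule took 45 of 21532 genes, which fell into 6 of SLC1, 2 of SLC3, 10 of SLC6, 13 of SLC7, 2 of SLC36, 9 of SLC38 and 3 of SLC43. The livers came from 8 male db/db mice, in which the leptin receptor is mutated, so that they are obese and diabetic. Control was given to 4 mice and AF1 peptide to 4. AF1 peptide is a synthetic peptide derived from estrogen receptor α with a TAT tag that lets it enter cells. Treatment began at 8 weeks of age and lasted 5 weeks, with 2 injections of 5 mg/kg in each week. RNA came from frozen liver tissue and not from separated cells, so that fewer cells of a type and less RNA per cell cannot be told apart. The db/db mutation was shared by both groups, and lean mice were not analysed here.

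Amino acid transporters work in groups. SLC38 carriers couple neutral amino acids to sodium, with system N moving glutamine and histidine and system A moving alanine and other small neutral amino acids. In SLC7, the CAT proteins carry arginine and lysine on their own, while the light chains reach the membrane only when bound to an SLC3 heavy chain. SLC36 holds proton-coupled carriers and their relatives, SLC1 holds glutamate carriers and neutral exchangers, SLC6 holds carriers of neurotransmitters and osmolytes, and SLC43 holds uniporters of large neutral amino acids. The liver is known for taking up alanine and glutamine from blood and for exporting glutamine from the cells around the central vein.

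Sequencing depth was 23031880 to 45117528 reads per mouse. All 12 hepatocyte markers were measured in every mouse. The liver of AF1 peptide replicate 1 stood apart from the other 7. Its transporter genes took 0.432% of all reads, against 0.198 to 0.241% in control mice and 0.188 to 0.205% in AF1 peptide replicates 2 to 4. Not all transporters shared in this. Without Slc38a2, Slc38a3, Slc38a4, Slc7a2 and Slc43a1, left out after their values were seen, their normalized read counts summed to 17948.6 in it. In the other mice that sum was 19090.5 to 22692.9. The share of reads from the 13 mitochondrial genes was 20.8% in it, 22.4 to 34.3% in control mice and 34.3 to 37.8% in AF1 peptide replicates 2 to 4. The 11 macrophage markers summed to 3679 in it, against 8250 to 10529 in control mice and 9099 to 9925 in AF1 peptide replicates 2 to 4. The summed adipocyte markers were at 2146 in it and at 5824 to 7439 in the other mice. Adipoq, Plin1 and Lep of that list were not analysed here. Within that list Cidec (a lipid droplet protein that fatty liver also makes) was at 243 in it and at 3542 to 4768 in the others. Fabp4, Cfd and Adig were also lowest in it, while Pparg and Lpl lay within the range of the others. The neutrophil markers summed to 73.7 in it and 156 to 290 in the others. The endothelial, stellate, cholangiocyte and erythroid sums were also lowest in it, at 9757, 8876, 1326 and 27127. In the other mice they were at least 10375, 9757, 1502 and 34179. Not every marker of these lists was low in it. Pecam1, Col1a1, Spp1 and Hba-a1 were each lowest in it. Stab2 (endothelial) was highest in it, at 1954 against at most 1851, as was Krt23 (cholangiocyte), at 497 against at most 384. Dcn, Reln, Ecm1, Krt19, Krt7 and Hbb-bs lay within the range of the other mice, as did Marco of the macrophage list. Its lymphocyte, pancreas and kidney tubule sums lay within the range of the other mice. The hepatocyte markers also had their lowest sum in it, at 2108060, of which Alb alone gave 1224160. Alb, Ttr, Apoa1 and Apob were each lower in it than in the other 7. Tat, Ass1 and Cps1, which handle amino acid nitrogen, were each higher in it than in the other 7. So were Serpina1a, Hnf4a, Cyp2e1, F2 and Fga. The part of these values in the results was not tested.

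The transporter genes differed widely in level. Per kilobase of exon, Slc38a3 (SNAT3, the system N carrier of glutamine, histidine and asparagine) was the highest, at 10391 ± 1656 (SD, n = 4) in control mice. Slc6a13 (GAT2, a carrier of GABA and taurine) followed at 3892 ± 497 (SD, n = 4), and Slc38a4 (SNAT4, the system A carrier of hepatocytes) at 3255 ± 556 (SD, n = 4). The control values of Slc6a13 and Slc38a4 overlapped. Slc6a12 (BGT1, which moves betaine and GABA) stood at 665 ± 123 (SD, n = 4) per kb, Slc43a3 (known to move purine nucleobases) at 512 ± 39.8 (SD, n = 4), Slc7a2 (CAT2, the cationic carrier of liver) at 408 ± 61.2 (SD, n = 4) and Slc38a2 (SNAT2) at 369 ± 47.7 (SD, n = 4). The control values of Slc7a2 and Slc38a2 overlapped, as did those of Slc6a12 and Slc43a3. Slc38a3 alone gave 42.9 to 56.5% of the transporter families' normalized read counts in each mouse, and the 4 genes Slc38a3, Slc38a4, Slc6a13 and Slc7a2 gave 79.0 to 87.5%.

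**Figure D1:**
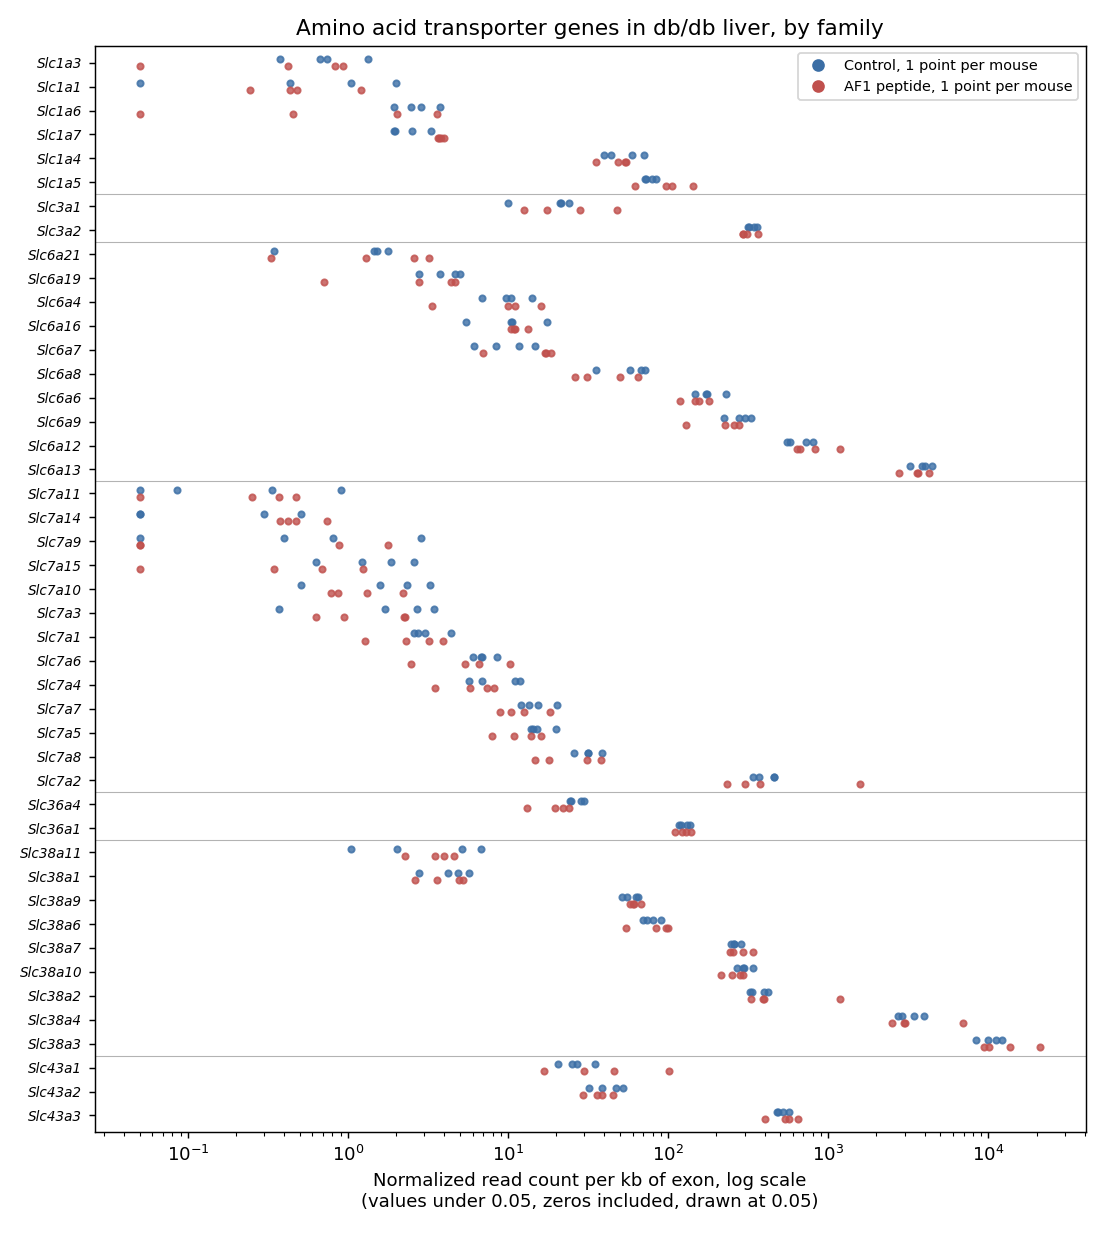
Level of each of the 45 transporter genes, as normalized read count per kb of exon on a log axis, with 1 point per mouse and the genes grouped by family. Slc38a3 lies highest in both groups, and most genes of SLC7 lie under 100.

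Across these 45 genes, AF1 peptide treatment was accompanied by 1 call. A gene was tested if its mean normalized read count was at least 10, which left 33 genes, and was called at an unadjusted p value under 0.05 in limma on log2(normalized read count + 1). Of the 33, 0 were called higher and 1, Slc36a4, was called lower. Over all 15989 genes tested, 3.16% were called higher and 3.03% lower. edgeR and DESeq2 on the recovered reads also gave 0 higher and 1 lower. At an adjusted p value under 0.05 limma called 0 genes of the table, edgeR 0 and DESeq2 3, of which 0 were transporters. The median log2 fold change was -0.10 over the 33 transporters and -0.01 over all genes tested, with 14 transporters above 0 and 19 below. When libraries were scaled to equal totals, 14.3% of all calls were higher, against 51.1% with the deposited scaling, the median of all genes moved by -0.09, and 3 transporters were called lower (Slc36a4, Slc38a10 and Slc6a9).

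**Figure D2:**
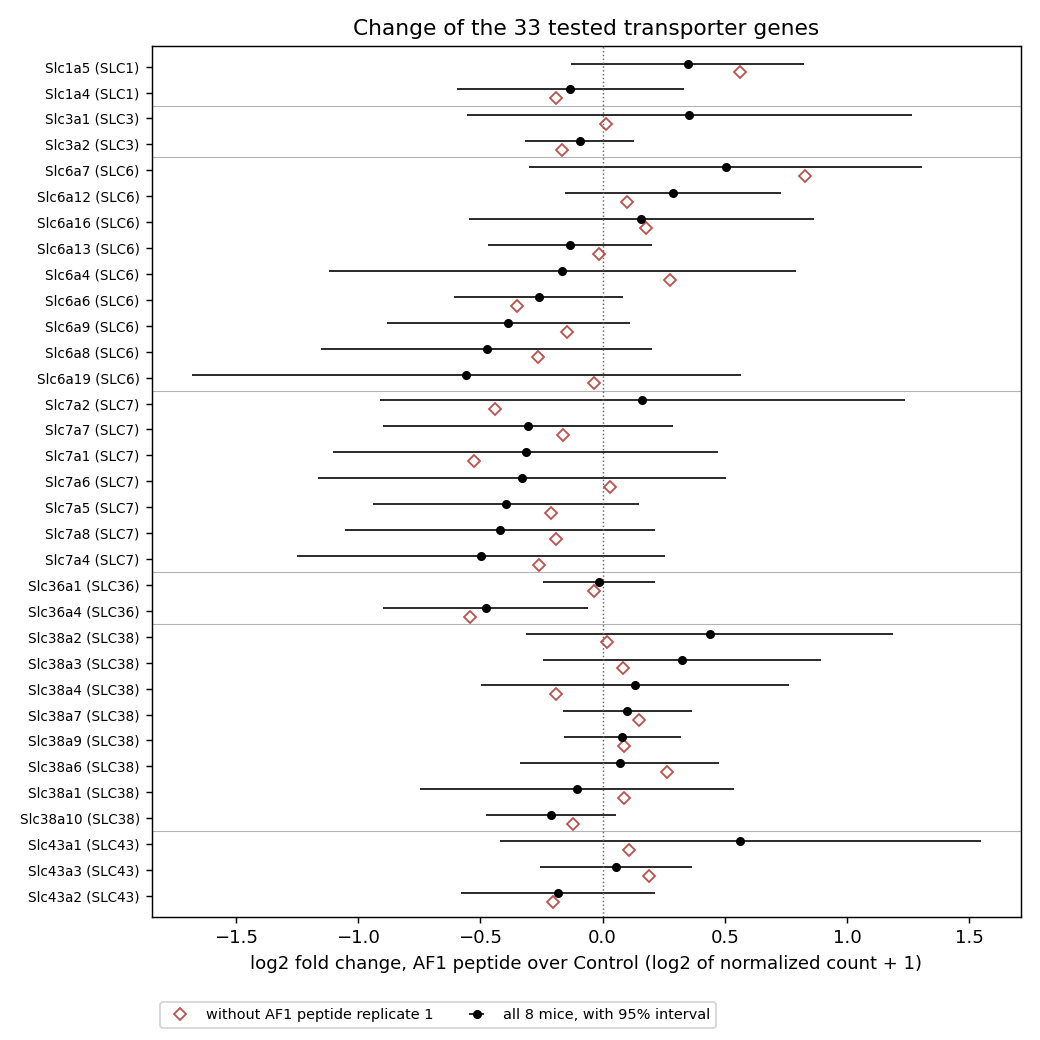
Log2 fold change of AF1 peptide over control for the 33 tested genes by family (filled points, with 95% intervals from limma) and the same value without AF1 peptide replicate 1 (open diamonds). The interval of Slc36a4 alone excludes 0, and the diamonds of 5 genes (Slc6a4, Slc7a2, Slc7a6, Slc38a1 and Slc38a4) lie on the other side of 0 from the filled points.

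The gene called was of the SLC36 family. Slc36a4 (PAT4, a carrier of proline and tryptophan) had normalized read counts of 159, 195, 162 and 188 in control mice and 144, 85.8, 157 and 129 in AF1 peptide-treated mice. Every treated mouse lay below every control mouse, although the highest treated value, 157, and the lowest control value, 159, were nearly equal. Among all genes tested, 3.9% had groups that did not overlap. Slc36a4 was 0.718-fold the control level (log2 fold change -0.48, SE 0.19, 95% interval -0.90 to -0.06, limma adjusted p = 0.763). edgeR and DESeq2 also called it. The call was lost without control replicate 2 (log2 fold change -0.43), without control replicate 4 (-0.45), without AF1 peptide replicate 2 (-0.30) and with the gene's own variance. Without AF1 peptide replicate 1 it held, at a log2 fold change of -0.54 (SE 0.19). The other SLC36 gene, Slc36a1 (PAT1, on lysosomes and the cell surface), had 681 ± 49.2 (SD, n = 4) in control mice and 675 ± 63.2 (SD, n = 4) in treated mice. Its log2 fold change was -0.01 (95% interval -0.24 to 0.21).

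The 250 bases before the start of Slc36a4, shown because it is the gene called, are given 5′ to 3′ from RefSeq (GRCm38.p6, chr9:15709488-15709737, plus strand).
Slc36a4: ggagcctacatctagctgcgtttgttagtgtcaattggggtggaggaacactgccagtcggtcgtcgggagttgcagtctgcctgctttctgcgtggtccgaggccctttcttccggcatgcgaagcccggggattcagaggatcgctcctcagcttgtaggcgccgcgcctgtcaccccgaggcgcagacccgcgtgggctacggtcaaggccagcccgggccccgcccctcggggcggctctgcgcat
These bases hold no copy of TGATGNAA, the core that C/EBP and ATF proteins read in genes of the amino acid response, on either strand, and are 66% G and C.

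Among the sodium-coupled carriers of the SLC38 family, 3 of the most abundant were highest in AF1 peptide replicate 1. Slc38a2 (SNAT2, the system A carrier known to rise when amino acids are short) had 1963, 1503, 1846 and 1558 normalized read counts in control mice and 5525, 1527, 1855 and 1829 in treated mice. Of the treated mice only replicate 1 was outside the control range, at 3.22 times the control mean. The log2 fold change was 0.44 (SE 0.34, limma adjusted p = 0.804) with all mice and 0.02 (SE 0.12) without that mouse.

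Slc38a4 showed the same high mouse. It had 16338, 11957, 11267 and 14126 in control mice and 28524, 12446, 10308 and 12314 in treated mice. Its log2 fold change was 0.13 (SE 0.28, limma adjusted p = 0.934) with all mice and -0.19 (limma adjusted p = 0.668) without AF1 peptide replicate 1. Slc38a3 had 43183, 29607, 39857 and 35231 in control mice and 75299, 48768, 33418 and 35960 in treated mice. Replicates 1 and 2 of the treated mice lay above the control range and replicates 3 and 4 within it. Its log2 fold change was 0.32 (SE 0.26, limma adjusted p = 0.811) with all mice and 0.09 (limma adjusted p = 0.893) without replicate 1.

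**Figure D3:**
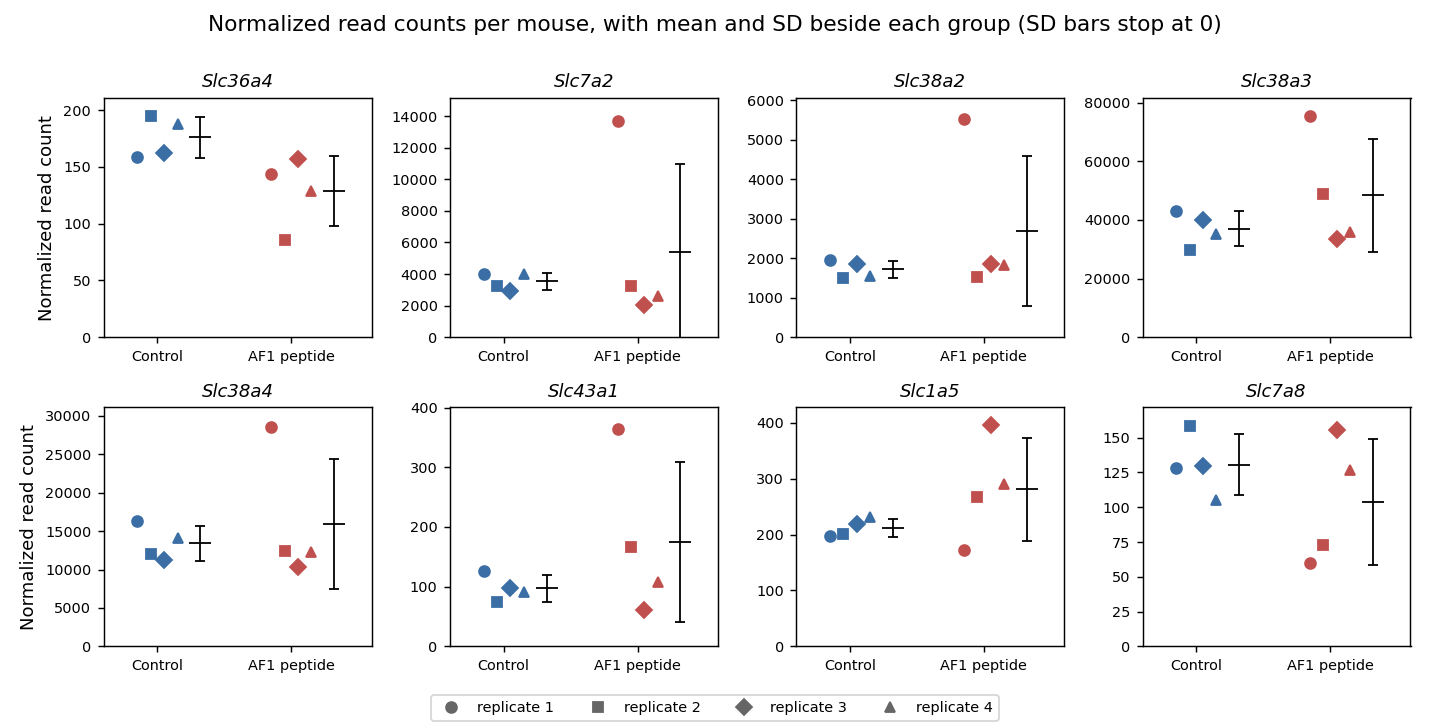
Normalized read counts of 8 transporter genes in each mouse (symbols mark the replicate number, which the labels do not say pairs mice), with the mean and SD of each group of 4 beside the points. AF1 peptide replicate 1 is the highest mouse for Slc7a2, Slc38a2, Slc38a3, Slc38a4 and Slc43a1 and the lowest for Slc1a5 and Slc7a8, and the groups do not overlap for Slc36a4.

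None of the other SLC38 genes was called with all mice. Slc38a10 (of intracellular membranes) had 1622 ± 158 (SD, n = 4) in control mice and 1407 ± 192 (SD, n = 4) in treated mice (log2 fold change -0.21, limma adjusted p = 0.769, and -0.12 without AF1 peptide replicate 1). Slc38a7 (SNAT7, which moves glutamine and asparagine out of lysosomes) had 872 ± 53.1 (SD, n = 4) and 943 ± 148 (SD, n = 4). Slc38a9 (the lysosomal arginine sensor of mTORC1 signaling) had 522 ± 56.0 (SD, n = 4) and 551 ± 37.7 (SD, n = 4), with a log2 fold change of 0.08 (95% interval -0.16 to 0.32). Slc38a1 (SNAT1, a system A carrier) had 47.1 ± 13.4 (SD, n = 4) and 43.9 ± 13.1 (SD, n = 4). Slc38a6, an orphan member, shares 22.8% of its 50-base words with other genes, so that its counts are uncertain.

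In the cationic group of SLC7, Slc7a2 was high in the same mouse. It had 3988, 3218, 2948 and 3975 normalized read counts in control mice and 13726, 3262, 2022 and 2602 in treated mice. Treated replicate 1 was at 3.89 times the control mean, whereas replicates 3 and 4 lay below the lowest control mouse. The log2 fold change was 0.16 (SE 0.48, limma adjusted p = 0.958) with all mice, and without replicate 1 it was -0.44 (SE 0.16, limma adjusted p = 0.474), which was called. DESeq2 gave no p value for this gene. Slc7a1 (CAT1, the cationic carrier of most other tissues) had 22.8 ± 5.93 (SD, n = 4) in control mice and 19.2 ± 8.18 (SD, n = 4) in treated mice. Per kb, Slc7a2 was at 408 and Slc7a1 at 3.18 in control mice.

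Heavy and light chains differed from each other in AF1 peptide replicate 1. The heavy chain Slc3a2 (4F2hc or CD98) had 959, 1039, 1092 and 973 in control mice and 1103, 939, 892 and 883 in treated mice (log2 fold change -0.09, limma adjusted p = 0.852, and -0.17 without AF1 peptide replicate 1). In it, replicate 1 of the treated mice was the highest of the 8, and AF1 peptide replicates 2 to 4 lay below all 4 control mice. The 4 light chains tested were lowest in that mouse. Slc7a8 (LAT2, for neutral amino acids) had 129, 159, 130 and 106 in control mice and 59.7, 73.1, 156 and 127 in treated mice. Slc7a5 (LAT1, for large neutral amino acids) had 50.3, 53.2, 48.6 and 70.3 in control mice and 28.0, 38.4, 56.8 and 48.7 in treated mice. For both genes replicate 1 was the lowest of the treated mice, and the groups overlapped for both.

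Slc7a7 (y+LAT1) had 40.2 ± 9.24 (SD, n = 4) in control mice and 32.9 ± 10.7 (SD, n = 4) in treated mice, and Slc7a6 (y+LAT2) had 26.5 ± 3.85 (SD, n = 4) and 23.2 ± 12.2 (SD, n = 4). All 4 tested light chains had a negative log2 fold change, from -0.42 for Slc7a8 to -0.30 for Slc7a7, and 0 of the 4 were called. Without AF1 peptide replicate 1 the values were -0.19 for Slc7a8, -0.21 for Slc7a5, -0.16 for Slc7a7 and 0.03 for Slc7a6, with 0 called. Slc7a8 was called lower without AF1 peptide replicate 3, at -0.65. Per kb, Slc3a2 was 4.19 to 4.86 times the sum of the light-chain genes other than Slc7a9 in control mice, and 9.97, 6.44, 3.47 and 4.56 times in AF1 peptide replicates 1 to 4. The marker sums of macrophages and of several other cell types were low in the same mouse, though not every marker was, as given above. Their part in the light-chain values was not tested. The other heavy chain, Slc3a1 (rBAT), had 47.8, 54.2, 22.7 and 48.6 in control mice and 108, 63.9, 39.5 and 28.5 in treated mice, with a log2 fold change of 0.36 with all mice and 0.02 without AF1 peptide replicate 1. Its partner Slc7a9 was at 0 in 3 mice and at most 5.91 in any.

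**Figure D4:**
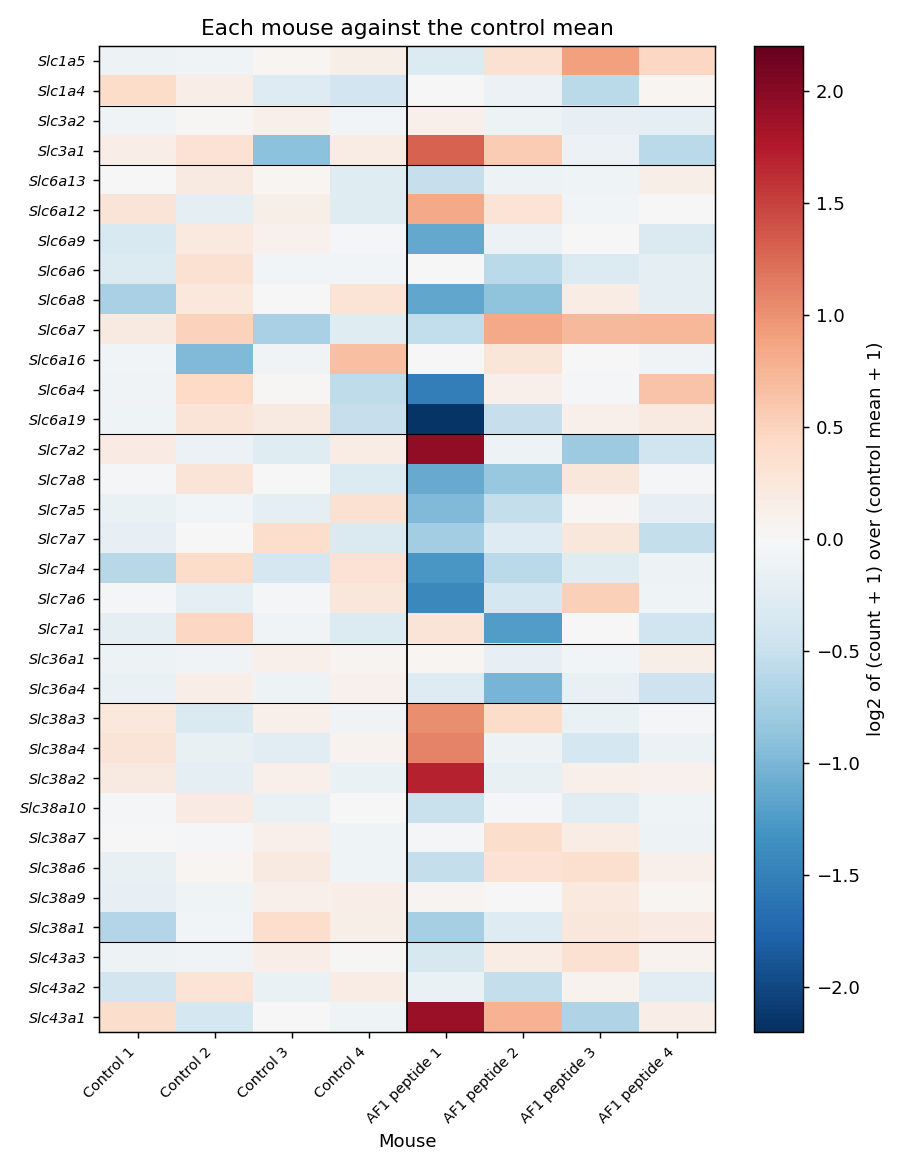
Log2 ratio of each mouse to the control mean for the 33 tested genes, with red above and blue below the mean and families separated by lines. In the column of AF1 peptide replicate 1, Slc7a2, Slc38a2, Slc38a3, Slc38a4 and Slc43a1 are red and most SLC6 and SLC7 genes are blue.

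AF1 peptide replicate 1 was the highest mouse for 8 of the 33 tested transporters (24.2%) and the lowest for 15 (45.5%). Over all genes tested it was the highest for 25.9% and the lowest for 23.4%.

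In SLC6, the osmolyte and GABA carriers of liver did not pass the threshold. Slc6a13 had 8602, 9944, 8972 and 7262 in control mice and 6152, 8007, 8171 and 9550 in treated mice (log2 fold change -0.13, limma adjusted p = 0.857, and -0.02 without AF1 peptide replicate 1). Slc6a12 had 2162, 1537, 1937 and 1472 in control mice and 3153, 2195, 1703 and 1786 in treated mice (log2 fold change 0.29, limma adjusted p = 0.789, and 0.10 without AF1 peptide replicate 1). AF1 peptide replicate 1 was thus the lowest mouse for Slc6a13 and the highest for Slc6a12. Slc6a6 (TauT, the taurine carrier) had 1117 ± 211 (SD, n = 4) in control mice and 930 ± 152 (SD, n = 4) in treated mice. Its log2 fold change was -0.26 (limma adjusted p = 0.774) with all mice and -0.35 (limma adjusted p = 0.486), which was called, without AF1 peptide replicate 1.

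Slc6a8 (the creatine carrier) had 140, 270, 228 and 284 in control mice and 104, 124, 258 and 197 in treated mice (log2 fold change -0.47, limma adjusted p = 0.78). It was called lower without control replicate 1 (-0.69) and without AF1 peptide replicate 3 (-0.70), and was at -0.27, not called, without AF1 peptide replicate 1. Slc6a9 (GlyT1, a glycine carrier) had 821, 1208, 1110 and 1012 in control mice and 476, 946, 1026 and 828 in treated mice (log2 fold change -0.38, limma adjusted p = 0.774, and -0.14 without AF1 peptide replicate 1). For Slc6a9 the treated mice were on average lower and 3 of the 4 lay within the control range. The remaining tested SLC6 genes, Slc6a4, Slc6a7, Slc6a16 and Slc6a19, had control means of 15.9 to 34.5. None of the 9 tested SLC6 genes was called, and their log2 fold changes ran from -0.56 (Slc6a19) to 0.50 (Slc6a7). With AF1 peptide replicate 1 left out, Slc6a19 was at -0.03, the range was -0.35 (Slc6a6) to 0.83 (Slc6a7), and the genes at its ends were called.

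The neutral exchangers of SLC1 stood at 76.6 (Slc1a5) and 53.4 (Slc1a4) per kb in control mice. Slc1a5 (ASCT2, which exchanges glutamine and other neutral amino acids) had 197, 201, 218 and 231 in control mice and 172, 267, 395 and 290 in treated mice. The lowest of the 8 mice was AF1 peptide replicate 1, while AF1 peptide replicates 2 to 4 lay above all 4 control mice. The log2 fold change was 0.35 (SE 0.22, limma adjusted p = 0.774) with all mice and 0.56 (SE 0.15, limma adjusted p = 0.452), which was called, without replicate 1. Slc1a4 (ASCT1, for small neutral amino acids) had 210 ± 55.8 (SD, n = 4) and 189 ± 35.4 (SD, n = 4).

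Among the SLC43 uniporters, Slc43a1 (LAT3, for branched-chain and other large neutral amino acids) had 127, 73.9, 97.3 and 90.4 in control mice and 365, 166, 61.0 and 107 in treated mice. Treated replicate 1 was at 3.76 times the control mean and replicate 3 was the lowest of all. The log2 fold change was 0.56 (SE 0.44, limma adjusted p = 0.811) with all mice, 0.11 without replicate 1 and 0.96, which was called, without replicate 3. Slc43a2 (LAT4, with the same substrates) had 306 ± 64.6 (SD, n = 4) and 268 ± 46.6 (SD, n = 4), and Slc43a3 had 1323 ± 103 (SD, n = 4) and 1391 ± 263 (SD, n = 4).

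Without AF1 peptide replicate 1, 3 of the 33 tested transporters were called higher (Slc1a5, Slc6a7 and Slc38a6) and 3 lower (Slc36a4, Slc6a6 and Slc7a2). Over all 15994 genes then tested, 4.58% were called higher and 5.45% lower. Slc6a7 (a proline carrier of brain) and Slc38a6 are named here after their values were seen. Slc6a7 had 20.54 to 49.2 in control mice and 23.3, 62.1, 56.8 and 57.9 in treated mice (log2 fold change 0.83 without replicate 1 and 0.50 with all mice). Slc38a6 had 473 to 605 in control mice and 369, 658, 676 and 570 in treated mice (log2 fold change 0.26 without replicate 1 and 0.07 with all mice). The smallest adjusted p value among the transporters in that comparison was 0.452 by limma.

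The other 12 transporters were too low to test, with means of 1.74 to 9.36 and no value above 11.9. They were Slc1a1, Slc1a3, Slc1a6, Slc1a7, Slc6a21, Slc7a3, Slc7a9, Slc7a10, Slc7a11, Slc7a14, Slc7a15 and Slc38a11, of which 7 were at 0 reads in at least 1 mouse. All 4 glutamate carriers of SLC1 in the set were among them. Slc7a11 (xCT, the cystine and glutamate exchanger) had at most 8.86 in control and 4.67 in treated mice. Slc1a7 (EAAT5, a glutamate carrier) had 9.89, 5.91, 7.57 and 5.86 in control mice and 11.2, 10.96, 11.5 and 11.9 in treated mice. Its groups did not overlap, and in limma without the filter its log2 fold change was 0.60 (adjusted p = 0.814). Among the genes tested, 3.9% had groups that did not overlap, and this share was not counted for genes as low as Slc1a7.

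Genes that respond to or sense amino acids were counted in the same way. Of 33 tested genes of the amino acid shortage response, which ATF4 drives when amino acids run low, 0 were called higher and 1 lower, with a median log2 fold change of -0.05. The gene called was Psph (which makes serine), with 132, 148, 129 and 120 in control mice and 95.2, 94.98, 102 and 110 in treated mice (log2 fold change -0.39, limma adjusted p = 0.763). Ddit4 (REDD1, a brake on mTORC1) had 272 ± 25.5 (SD, n = 4) and 217 ± 44.2 (SD, n = 4). Its log2 fold change was -0.34 with all mice, not called, and -0.45 without AF1 peptide replicate 1, called. Cebpg had 853 ± 48.6 (SD, n = 4) and 744 ± 46.5 (SD, n = 4) and was not called. In the fit without AF1 peptide replicate 1, 5.45% of all genes tested were called lower and 4.58% higher. Without that mouse 3 of the 33 were called lower (Cebpb, Ddit4 and Psph) and 0 higher. In that mouse Asns (asparagine synthetase) was at 309.8, against 10.05 to 33.5 in the other 7, and Cth (which makes cysteine) at 14656, against 920 to 3640. Fgf21 (a liver hormone) was at 81.2 in it and at 470 to 1209 in the others. Leaving it out moved the log2 fold change of Asns from 1.11 to 0.11, of Cth from 0.14 to -0.64 and of Fgf21 from -0.88 to -0.11, none of them called. Other genes of the list went both ways in that mouse. Atf4, Atf5, Ddit3 and Aars were also highest in it. Atf3, Chac1, Psat1, Mthfd2, Aldh18a1, Nupr1, Cars and Wars were lowest in it, and Trib3 lay within the range of the others. The genes named for that mouse were picked after their values were seen.

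Of 35 tested genes of lysosomal amino acid sensing, 0 were called higher and 1 lower, with a median log2 fold change of 0.01. The gene called was Sec13 (a subunit of GATOR2 and of COPII coats and nuclear pores), with 1717, 1849, 1492 and 1707 in control mice and 1236, 1436, 1334 and 1424 in treated mice. Every treated mouse lay below every control mouse (log2 fold change -0.32, limma adjusted p = 0.763). Of the 35 genes, 3 had all treated mice below all control mice (Sec13, Mlst8 and Lamtor5) and 1 had them all above (Tsc2). Over all genes tested, 3.9% had groups that did not overlap in either direction. Mlst8 and Lamtor5, named here after their values were seen, were not called. Tsc2 (of the TSC complex) had 1215 ± 49.9 (SD, n = 4) and 1387 ± 90.3 (SD, n = 4), and Nprl3 (of GATOR1) had 508 ± 58.4 (SD, n = 4) and 592 ± 21.5 (SD, n = 4). Neither was called. Without AF1 peptide replicate 1, 2 of the 35 genes were called higher (Castor2 and Tsc2) and 3 lower (Lamtor1, Seh1l and Sec13). Over all genes tested in that fit, 4.58% were called higher and 5.45% lower.

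Of 9 tested carriers of amino acids and peptides outside the 7 families, 0 were called in either direction with all mice, also by edgeR and DESeq2. Their median log2 fold change was 0.01. Slc16a10 (TAT1, which lets aromatic amino acids out of cells) had 937, 701, 655 and 692 in control mice and 1895, 986, 640 and 734 in treated mice, so that AF1 peptide replicate 1 was again the highest. Slc15a2 (PEPT2, a peptide carrier) had 201 ± 59.2 (SD, n = 4) and 143 ± 55.0 (SD, n = 4), and was called lower without AF1 peptide replicate 1 (log2 fold change -0.73). Slc17a5 (sialin, of lysosomes) had 531 ± 60.1 (SD, n = 4) and 464 ± 30.4 (SD, n = 4).

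RefSeq promoters were at hand for 34 of the 45 transporters. Those of Slc1a5, Slc6a6, Slc6a7, Slc6a8, Slc7a2, Slc7a3, Slc7a4, Slc7a5, Slc38a1, Slc38a3 and Slc43a3 were not used here. In the 250 bases before a start, TGATGNAA was found on either strand in 3 of the 34 (8.82%), Slc6a21, Slc7a7 and Slc7a11, and in 3.91% of all 27025 genes with a promoter. The cyclic AMP response element TGACGTCA, searched after the values were seen, was found in 1 of the 34 (2.94%), Slc38a6, and in 1.77% of all genes. No transporter held both motifs, so no matches overlapped. A match is a description of the letters and not of binding.

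The windows of Slc38a2 and Slc43a1 are shown because these genes were over 3 times the control mean in AF1 peptide replicate 1, and those of Slc7a7 and Slc7a11 because they hold the motif, in capitals. They run 5′ to 3′ and end at the base before the start (GRCm38.p6): Slc38a2 at chr15:96699729-96699978 on the minus strand, Slc43a1 at chr2:84840073-84840322 on the plus strand, Slc7a7 at chr14:54417945-54418194 and Slc7a11 at chr3:50443614-50443863, both on the minus strand.
Slc38a2: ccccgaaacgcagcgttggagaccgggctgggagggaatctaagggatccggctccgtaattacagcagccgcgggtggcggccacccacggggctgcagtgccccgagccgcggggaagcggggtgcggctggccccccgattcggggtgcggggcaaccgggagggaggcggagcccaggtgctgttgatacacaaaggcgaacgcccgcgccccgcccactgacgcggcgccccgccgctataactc
Slc43a1: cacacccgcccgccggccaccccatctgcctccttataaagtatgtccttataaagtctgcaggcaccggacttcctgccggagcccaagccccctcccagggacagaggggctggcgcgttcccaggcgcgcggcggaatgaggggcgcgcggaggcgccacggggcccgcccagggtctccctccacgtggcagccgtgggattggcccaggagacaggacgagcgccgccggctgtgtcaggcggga
Slc7a7: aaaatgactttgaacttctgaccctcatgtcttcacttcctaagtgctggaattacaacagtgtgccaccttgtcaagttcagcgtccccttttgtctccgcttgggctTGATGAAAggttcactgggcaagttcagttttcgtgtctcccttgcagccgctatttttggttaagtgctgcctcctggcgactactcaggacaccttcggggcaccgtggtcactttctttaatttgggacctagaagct
Slc7a11: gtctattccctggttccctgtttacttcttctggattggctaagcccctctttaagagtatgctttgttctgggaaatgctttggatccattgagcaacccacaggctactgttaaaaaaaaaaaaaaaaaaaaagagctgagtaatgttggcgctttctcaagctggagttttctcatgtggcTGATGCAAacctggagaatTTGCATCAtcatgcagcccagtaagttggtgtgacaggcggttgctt
Slc7a11 holds the motif at 2 places, as TGATGCAA and, on the other strand, as TTGCATCA. Slc7a7 holds TGATGAAA, and another of its starts holds TGATGCAA. The letters of neither motif occur in these windows of Slc38a2 and Slc43a1. Bases outside the windows, introns among them, were not searched, so a motif elsewhere in these genes would be missed.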

How the data were processed

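Liver RNA of 8 male db/db mice, 4 control and 4 AF1 peptide-treated, was sequenced from stranded mRNA libraries, 1 per mouse. The authors used TrimGalore 0.6.7 for trimming, HISAT2 for alignment, SAMtools 1.17 for sorting and GenomicAlignments for counts per gene. The submitters' processing notes name the mm39 build. Gene annotation, strand setting and size factor tool are not given in the sources used here. The authors deposited 1 table of normalized read counts, a signal that is reads divided by a size factor per library. All 172256 values gave whole reads within 0.1, and the size factors equalled median-of-ratios factors. 1 gene of these families and 1 gene of the list of other carriers are not reported here.

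Groups and replicate numbers came from the labels. The members and gene lists were chosen with earlier results of these data known. In R 4.3.3, limma 3.58.1 with an intensity trend was run on log2(normalized read count + 1) over the 15989 genes with a mean of at least 10. A fold change on this scale understates the change of low genes. A call is an unadjusted p value under 0.05, with Benjamini-Hochberg adjustment over all genes tested given beside it. Recovered reads were tested with edgeR 4.0.16 and DESeq2 1.42.0 as alternatives, and the script was tested on simulated data. Transporters were named if called, if among the top 2 per kb of their family, if the groups did not overlap, or if listed by role. Chi-square per degree of freedom between libraries of a group was 14.6 to 312, far above that of 1 library deposited again. Exon lengths and shared 50-base words came from GENCODE M21 on another build (GRCm38), and no gene coordinates are given. Overlapping exons on the other strand occur for Slc1a1, Slc3a1, Slc6a9, Slc7a2, Slc7a7, Slc7a10, Slc38a10 and Slc43a2, and reads of such pairs cannot be told apart if strand was not used.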

Additional observations from a re-analysis of the deposited data

Results flagged for a closer look

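In a group of 4 mice, a mouse was taken as far from the others when its gap to the nearest, as a share of the group's range, passed Dixon's 95% critical value. Over 66 groups (30 transporters and 3 library measures in each condition) 5 passed, where chance gives about 3.3. AF1 peptide replicate 1 accounted for 4: it was high for Slc38a2 (0.918 of the range), Slc38a4 (0.883), Slc7a2 (0.894) and the share of reads from transporters (0.93). Control replicate 1 was high in total reads (0.857 of the range).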

How the results depend on the processing

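The spread between mice limits the comparisons. The genes called over the whole table numbered 990, and 590 when a 1.3-fold change was also required. Leaving out 1 mouse moved that count from 542 to 1603, the highest being without AF1 peptide replicate 1. Transporters called higher ran from 0 to 3 over these fits and those called lower from 0 (without control replicate 2 or 4, or AF1 peptide replicate 2) to 3 (without AF1 peptide replicate 1 or 3). Transporters called lower numbered 3 with equal totals and 0 with each gene's own variance. Amino acid shortage genes called, 1 with all mice, numbered 2 with no filter, with TMM factors, without the trend and in edgeR, and 4 with own variance, and ran from 1 to 3 over the fits that leave out 1 mouse. Lysosomal sensing genes called, also 1, numbered 2 with at least 10 in every mouse, in edgeR and in DESeq2, 3 without the trend, 6 with own variance and 0 with a 1.3-fold change, and ran from 1 to 5. Other carriers called, 0 with all mice, ran from 0 to 1 over the fits that leave out 1 mouse (Slc15a2).

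The cause of these moves was not tested. With equal totals the log2 fold change reversed to -0.0214 for Slc38a6, -0.00955 for Slc38a9 and -0.0361 for Slc43a3. Over the fits that leave out 1 mouse, values that changed sign ran from -0.261 to 0.0145 for Slc1a4, -0.0628 to 0.0432 for Slc36a1, -0.304 to 0.0898 for Slc38a1, -0.19 to 0.30 for Slc38a4, -0.0269 to 0.264 for Slc38a6, -0.0378 to 0.189 for Slc43a3, -0.13 to 0.42 for Slc6a16, -0.44 to 0.28 for Slc6a4, -0.44 to 0.48 for Slc7a2 and -0.619 to 0.0291 for Slc7a6. Apart from equal totals, no other planned setting that kept all mice turned a tested transporter's direction.

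The labels do not say that replicate numbers pair the mice, and the mice were treated as unpaired. Deviations of same-numbered mice correlated at 0.235, 0.0238, 0.216 and -0.064, and the numbers mark different animals. Of all pairs across the groups, 0.235 and 0.216 were the highest, and not every mouse correlated best with its own number. These few values cannot tell whether mice were paired. With a replicate block, 1244 genes of the table were called, against 990 without it. In that fit 3 transporters were called lower (Slc36a4, Slc6a8 and Slc6a9), and 3 shortage genes and 2 sensing genes were called.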
